A study of Mus musculus with 4 samples.

Results

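The proneural basic helix-loop-helix (bHLH) genes and their partners were followed in mouse retina at E13.5, where E stands for embryonic day. The group is a list of gene names, drawn up with earlier results of these data known, and no measured value enters its rule. It holds 8 of the 25239 genes listed for each library: Atoh7, Neurog2, Neurod1, Neurod2, Neurod4, Olig2, Bhlhe22 and Insm1. All 8 were found, each on a single row per library. RNA sequencing had been done on 2 retina libraries whose genotype is given as control and 2 whose genotype is given as Isl1cKO, a conditional knockout of the LIM-homeodomain gene Isl1. The series asked how loss of Isl1 changes the retinal transcriptome. The strain, the Cre driver, the control alleles and the number of embryos behind a library are not given in the sources used here. Nothing says that replicates came from separate litters, so p-values measure only the spread between these libraries, which may be technical.

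Proneural bHLH proteins bind DNA as dimers with the widely expressed E proteins and switch on neuronal differentiation in dividing progenitors. In the embryonic retina they act in overlapping waves. Atoh7 gives progenitors the competence to form ganglion cells, the first-born retinal neurons, and lies upstream of Isl1 and Pou4f2. Neurog2, Olig2, Neurod1 and Neurod4 mark other and partly shared neurogenic states. Insm1 is a zinc finger repressor that works beside them as progenitors leave the cell cycle, and it is the only member without a bHLH domain.

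The relation of the 7 bHLH members can be read in their coding sequence. The following stretches of 48 coding bases lie in the basic region and first helix, the part that contacts DNA and begins the dimer interface. They are shown because reads from such conserved stretches are where a mapper could confuse members. Capitals mark the 22 bases that are identical in all 7 genes. The sequences come from GENCODE M21 transcripts (GRCm38) and were found as the best in-frame match without gaps to Neurod2.
Atoh7, coding bases 148 to 195: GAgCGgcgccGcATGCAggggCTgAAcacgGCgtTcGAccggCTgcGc
Neurog2, coding bases 361 to 408: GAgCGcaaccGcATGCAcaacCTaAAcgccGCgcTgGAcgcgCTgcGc
Neurod1, coding bases 328 to 375: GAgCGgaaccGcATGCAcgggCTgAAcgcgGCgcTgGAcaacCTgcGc
Neurod2, coding bases 391 to 438: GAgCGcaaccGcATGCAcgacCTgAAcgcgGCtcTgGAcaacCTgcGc
Neurod4, coding bases 286 to 333: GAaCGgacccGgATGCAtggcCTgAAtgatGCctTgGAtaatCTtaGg
Olig2, coding bases 349 to 396: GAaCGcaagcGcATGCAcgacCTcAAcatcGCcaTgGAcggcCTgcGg
Bhlhe22, coding bases 673 to 720: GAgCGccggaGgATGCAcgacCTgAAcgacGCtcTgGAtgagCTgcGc

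Over this stretch Neurod1 and Neurod2 were the most alike of the 21 pairs, with 44 of 48 bases identical (91.7%). Neurog2 and Neurod4 were the least alike, with 28 identical bases (58.3%). Across the whole coding sequence, the longest run of identical bases shared by any pair of members was 25 bases, between Neurod1 and Neurod2. That run, in capitals with 10 flanking bases on each side, falls further along the same domain in both genes.
Neurod1, run starting at coding base 434: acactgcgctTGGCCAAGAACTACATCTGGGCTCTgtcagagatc
Neurod2, run starting at coding base 497: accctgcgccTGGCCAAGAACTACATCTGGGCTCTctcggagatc
The next longest coding run was 18 bases, between Neurog2 and Neurod2. In all 8 members the whole coding sequence lies in 1 exon. Of the 21875 protein-coding genes of the same annotation, 17.6% have at least 1 transcript with 1 coding exon. Atoh7, Bhlhe22 and Insm1 have 1 exon in all, and the others have 2. No member overlaps another gene in the authors' tables. In the annotation used for the exon counts, Neurod1 overlaps Cerkl on the same strand and Gm26755 on the other. Cerkl was at 1.27 to 2.46 TPM over the libraries.

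E-boxes, the sites bound by bHLH dimers (CANNTG, which reads as CANNTG on the other strand too), were sought from 250 bases before to 50 bases after the start sites. The start sites are those of RefSeq on GRCm38.p6, which gives 7 such windows for Atoh7, Neurog2, Neurod1, Neurod2, Olig2 and Neurod4, the last with 2. Of these, 4 windows held an E-box, against 72.3% of all 32851 windows of that length. Atoh7 and Neurod2, the members with the highest and the lowest level in these libraries, held 3 each. They are shown with 10 flanking bases and the E-box in capitals, and the first base of the E-box is counted from the start site.
Atoh7 at -218, chr10:63099557-63099582, plus strand: caggccactcCAGATGgtgtgttagt
Atoh7 at -67, chr10:63099708-63099733, plus strand: gacgcccgccCACCTGccaccacctg
Atoh7 at -57, chr10:63099718-63099743, plus strand: cacctgccacCACCTGttccctcctt
Neurod2 at -118, chr11:98329748-98329773, minus strand: tagagagtgaCAGATGgcggcgggtc
Neurod2 at -51, chr11:98329681-98329706, minus strand: caccgtctctCATGTGatagctgctg
Neurod2 at -17, chr11:98329647-98329672, minus strand: gtgccaagccCATATGgcctggcata
The Atoh7 sites at -67 and -57 lie next to each other, and each window holds the other site too. The form CAGATG, which reads CATCTG on the other strand, was present in 2 of the 7 member windows and in 17.2% of all windows. A match is a description of these letters and not evidence of binding.

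The libraries differ in ways that touch every comparison. Aligned sequence ranged from 12.6 to 14.3 gigabases. Isl1 itself (chromosome 13, 116298270 to 116309688, minus strand), the gene targeted, had levels of 242 and 201 TPM in the control libraries and of 321 and 223 TPM in the Isl1cKO libraries, replicate 1 first. TPM is the transcript abundance scaled to transcript length and to a fixed sum per library. The label Isl1cKO is thus not matched by a lower level of Isl1, and every direction below rests on the labels. A gene-level value cannot separate transcript of a recombined allele from transcript of an intact one. Principal component 1 carried 63.6% of the variance. Its values were -21.8 and -15.8 in control and 7.13 and 30.5 in Isl1cKO, replicate 1 first. It thus separated the groups and placed Isl1cKO replicate 2 farthest out. Xist was at 0.501 TPM in Isl1cKO replicate 2 and at 209 to 287 TPM in the other 3 libraries. Between the groups, 69 of 13984 tested genes (0.493%) had a Benjamini-Hochberg adjusted p-value under 0.05 in limma, and 65 of these fell in the libraries labelled Isl1cKO. Over all tested genes the median log2 fold change was -0.05.

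Of the 8 members, 7 reached 1 TPM in at least 2 libraries and were tested, and none was called. The count was 0 of 7 at an adjusted p-value under 0.05 in limma, beside 0.493% of all tested genes, and also 0 of 7 at an unadjusted p-value under 0.05, beside 12.1%. In none of the 7 did both values of a group lie above both values of the other, a separation found in 44.9% of all tested genes. Their log2 fold changes, which are differences on the log2(TPM + 1) scale of Isl1cKO minus control, ran from -0.47 for Neurod4 to 0.08 for Insm1, with a median of 0.02. The 95% interval of every one of the 7 included 0.

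**Figure D1:**
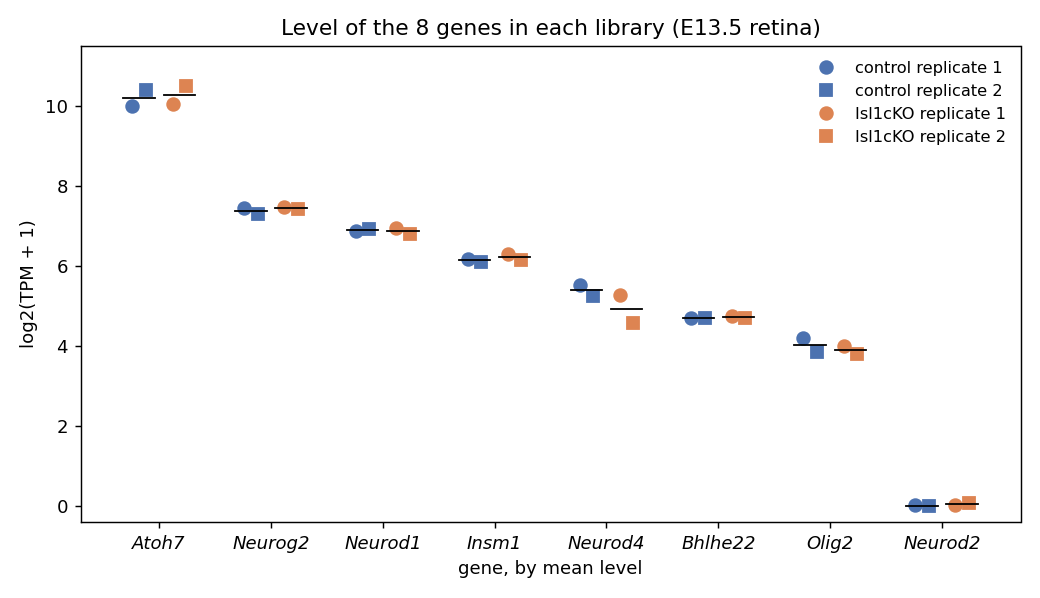
Level of each of the 8 genes as log2(TPM + 1), vertical axis, with 1 point per library (blue control, orange Isl1cKO; circles replicate 1, squares replicate 2) and a bar at each group's mean. Atoh7 lies above the rest in all 4 libraries, Neurod2 is near 0 in all 4, and the points of the groups interleave for the other members, with Isl1cKO replicate 2 lowest for Neurod4.

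By level the members formed the same order in 3 of the 4 libraries. Because TPM is scaled to length, levels of different genes can be set side by side. Such a comparison still depends on the transcript annotation used, which is not given. Atoh7 led, followed by Neurog2, Neurod1, Insm1, Neurod4, Bhlhe22, Olig2 and Neurod2. The ranges over the 4 libraries of neighbours in this order did not overlap, except for Neurod4 (22.8 to 45.3 TPM) and Bhlhe22 (25.1 to 26.1 TPM), whose order was exchanged in Isl1cKO replicate 2. Atoh7 had a mean 7.22-fold that of Neurog2. Alone it made up between 69.5% and 78.0% of the summed TPM of the 8 genes.

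Atoh7 (chromosome 10, 63099785 to 63101280, plus strand) is the ganglion cell competence factor. Its level was 1025 TPM in control replicate 1, 1352 TPM in control replicate 2, 1058 TPM in Isl1cKO replicate 1 and 1458 TPM in Isl1cKO replicate 2. In each group the library numbered 2 was the higher, and the values of the groups interleaved. Control averaged 1189 ± 231 TPM and Isl1cKO 1258 ± 283 TPM (SD, n = 2 each). This gave a log2 fold change of 0.08 (SE 0.22), with a 95% interval from -0.50 to 0.66 and a limma adjusted p-value of 0.919. Replicates differed by 0.40 and 0.46 on the log2 scale within control and within Isl1cKO, each more than the difference between the groups. The fold change was -0.12 without control replicate 1, -0.15 without Isl1cKO replicate 2, 0.28 without control replicate 2 and 0.31 without Isl1cKO replicate 1. Atoh7 ranked between 90 and 121 among all genes by TPM in the 4 libraries.

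Ganglion cell genes gave other values in these libraries. The ganglion cell marker list (Pou4f1, Pou4f2, Sncg, Gap43, Nefl, Nefm, Rbpms, Stmn2 and Thy1) summed to 3440 and 2943 TPM in control replicates 1 and 2 and to 1769 and 1211 TPM in Isl1cKO replicates 1 and 2. Of its 8 tested members 0 passed the adjusted threshold in limma, and 7 had an unadjusted p-value under 0.05, beside 12.1% of all tested genes. The median log2 fold change of the list was -1.07. Thy1 was below 1 TPM in every library. Pou4f2, a ganglion cell factor that Atoh7 is known to activate, was at 126 and 124 TPM in control and at 135 and 120 TPM in Isl1cKO, with overlapping groups. In bulk tissue, fewer cells of a type and less RNA per cell cannot be told apart.

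Neurog2 (chromosome 3, 127633136 to 127635631, plus strand) is a proneural factor of neurogenic progenitors that can activate Atoh7. It was at 174 and 156 TPM in control replicates 1 and 2, and at 176 and 171 TPM in Isl1cKO replicates 1 and 2. Lowest of all was control replicate 2, and control replicate 1 lay between the values of Isl1cKO. The log2 fold change was 0.08 (SE 0.09, 95% interval -0.17 to 0.33), and the limma adjusted p-value was 0.798.

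Olig2 (chromosome 16, 91225550 to 91228677, plus strand) marks a set of embryonic progenitors close to their last division. Its values were 17.4 and 13.53 TPM in control and 15.0 and 12.9 TPM in Isl1cKO. The groups overlapped, with the highest value in control replicate 1. The log2 fold change was -0.13 (SE 0.15, 95% interval -0.54 to 0.28), and the limma adjusted p-value was 0.793. It was 0.04 without control replicate 1, -0.03 without Isl1cKO replicate 2, -0.23 without Isl1cKO replicate 1 and -0.30 without control replicate 2.

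The NeuroD genes act later, in cells that have begun to differentiate. Neurod1 (chromosome 2, 79452639 to 79456636, minus strand), which promotes photoreceptor and amacrine development, was at 117 and 120 TPM in control replicates 1 and 2. In Isl1cKO replicates 1 and 2 it was at 122 and 110 TPM. Both control values lay between those of Isl1cKO. The log2 fold change was -0.03 (SE 0.09, 95% interval -0.27 to 0.22), and the limma adjusted p-value was 0.931.

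Neurod4 (chromosome 10, 130268152 to 130280254, minus strand), a factor of amacrine and bipolar development, had the lowest fold change of the group. It was at 45.3 and 37.2 TPM in control replicates 1 and 2, and at 37.5 and 22.8 TPM in Isl1cKO replicates 1 and 2. Isl1cKO replicate 2 lay below the other 3 libraries, while Isl1cKO replicate 1 was level with control replicate 2, so that the groups overlapped. Control averaged 41.2 ± 5.70 TPM and Isl1cKO 30.2 ± 10.4 TPM (SD, n = 2 each). Its log2 fold change was -0.47 (SE 0.26, 95% interval -1.17 to 0.22), and the adjusted p-value in limma was 0.568. It was -0.13 without Isl1cKO replicate 2, -0.82 without Isl1cKO replicate 1, -0.34 without control replicate 1 and -0.61 without control replicate 2. The replicates of Isl1cKO differed by 0.69 on the log2 scale, the widest replicate difference among the 7 tested members.

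Marker lists of later cell types stood as follows beside Neurod4. The photoreceptor precursor list (Otx2, Crx, Thrb, Rxrg, Prdm1 and Rcvrn) summed to 256 and 220 TPM in control replicates 1 and 2 and to 219 and 166 TPM in Isl1cKO replicates 1 and 2, with the same library lowest. Of its 5 tested members 0 passed the adjusted threshold in limma, and 1 had an unadjusted p-value under 0.05, beside 12.1% of all tested genes. All 5 fold changes were below 0, with a median of -0.45, where 63.8% of all tested genes had fold changes below 0. Rcvrn was listed at 0 in 3 libraries. Isl1cKO replicate 2 was also lowest in the sums of ganglion cell, horizontal cell, lens and red blood cell markers. So it was for pigment epithelium, periocular mesenchyme and endothelium markers, but not for amacrine cell, retinal progenitor and microglia markers. The amacrine list (Tfap2a, Tfap2b, Ptf1a, Gad1, Gad2, Slc32a1 and Pax6), whose sum is mostly Pax6, was at 570 to 583 TPM in control and at 620 to 639 TPM in Isl1cKO. Of its 5 tested members 4 had fold changes below 0, with a median of -0.49, and Gad1 was listed at 0 in 2 libraries. The part of these cell types in the values of Neurod4 was not tested.

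Neurod2 (chromosome 11, 98325417 to 98329645, minus strand), a neuronal differentiation factor best known from the cerebral cortex and from subsets of retinal neurons, was near 0 throughout. It was at 0.0189 and 0 TPM in control and at 0.0301 and 0.0579 TPM in Isl1cKO. Its mean coverage per base was at most 0.287 in any library, where that of Neurod1 was at least 544. No fold is given at this level, and Neurod2 was left out of the test by the filter on low values.

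Bhlhe22 (chromosome 3, 18054325 to 18057514, plus strand), a repressor of the Olig-related bHLH family that acts in amacrine and bipolar subtypes, varied least. It was at 25.3 and 25.1 TPM in control and at 26.1 and 25.1 TPM in Isl1cKO. Its log2 fold change was 0.02 (SE 0.08, 95% interval -0.19 to 0.23), and the limma adjusted p-value was 0.935. Among the 7 tested members it had the narrowest interval.

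Insm1 (chromosome 2, 146221997 to 146225018, plus strand), the zinc finger partner, was at 71.7 and 67.7 TPM in control and at 77.7 and 70.1 TPM in Isl1cKO. Isl1cKO replicate 1 was the highest and control replicate 2 the lowest, with the other libraries between them. The log2 fold change was 0.08 (SE 0.09, 95% interval -0.17 to 0.33), and the limma adjusted p-value was 0.788. It was 0.0084 without Isl1cKO replicate 1, 0.16 without Isl1cKO replicate 2, and between these without either control library.

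**Figure D2:**
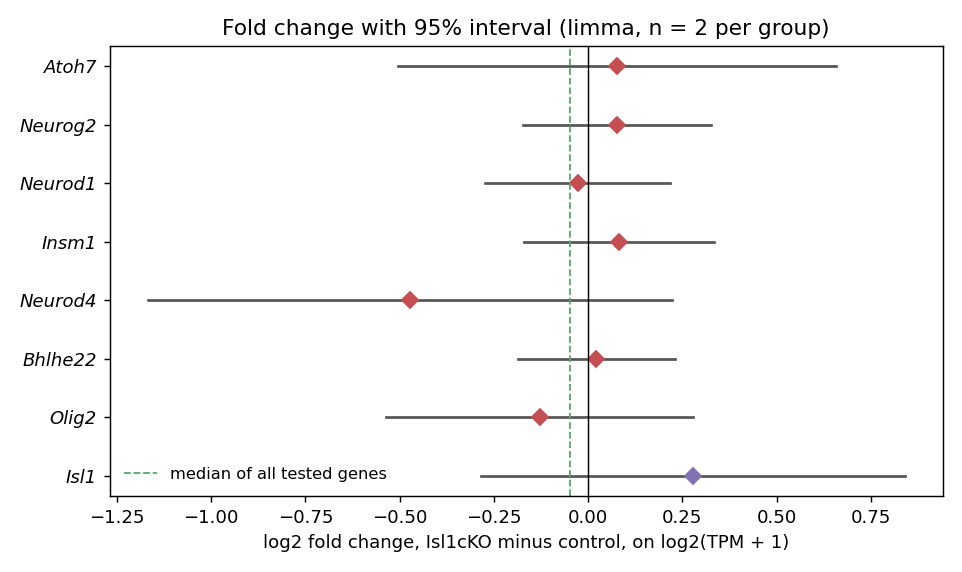
Log2 fold change of Isl1cKO minus control on the log2(TPM + 1) scale, horizontal axis, for the 7 tested members (red) and Isl1 (purple), with 95% intervals from limma (lines) and the median of all tested genes (dashed, -0.05). Every interval includes 0, and those of Atoh7 and Neurod4 are the widest among the members.

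These intervals are not adjusted for the number of genes. They measure only the spread between these libraries, which limma draws in part from all tested genes. For Neurog2, Neurod1, Bhlhe22 and Insm1 they lay between -0.27 and 0.33. These limits hold for the main scaling only. The log2 fold change of Insm1 was 0.08 there and 0.14 with quantile normalization. A change beyond the limits is not excluded with so few libraries. For Atoh7, Olig2 and Neurod4 the intervals are wider, and reach -0.50, -0.54 and -1.17. A p-value that misses the threshold does not show that the groups were alike.

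**Figure D3:**
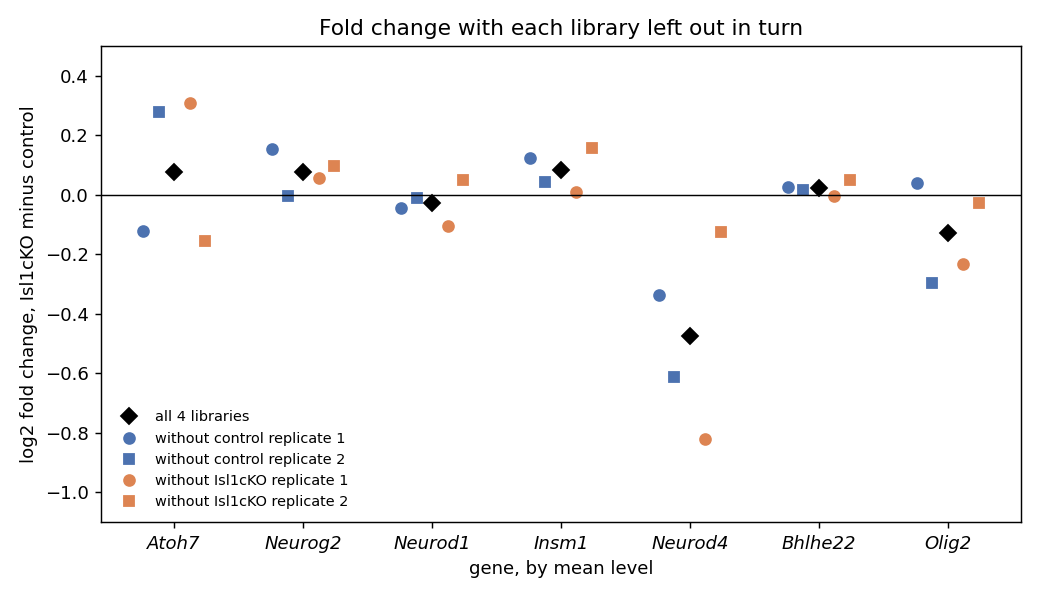
Log2 fold change of each tested member, vertical axis, with all 4 libraries (black) and with each library left out in turn (blue, a control library left out; orange, an Isl1cKO library left out). Neurod4 stays below 0 in every case, from -0.82 to -0.13, while Atoh7 runs from -0.15 to 0.31 and changes sign.

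The bHLH network around the members was examined with 7 lists of related genes, 59 genes in all, of which 53 were tested. None was called in limma (0 of 53, beside 0.493% of all tested genes), and 5 had an unadjusted p-value under 0.05, beside 12.1% of all tested genes. The median log2 fold change of the 53 was -0.01, beside -0.05 over all tested genes. The groups did not overlap in TPM for 29 of the 53, beside 44.9% of all tested genes. The smallest adjusted p-value was 0.171, for Id4.

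The E proteins Tcf3, Tcf4 and Tcf12, which dimerize with proneural factors, summed to 408 and 403 TPM in control and to 408 and 413 TPM in Isl1cKO, and 0 of 3 were called. Tcf4 had a log2 fold change of 0.08 and Tcf3 of 0.01. Of the Id proteins, which lack a basic region and hold E proteins in inactive dimers, 0 of 4 were called. Id4 was at 41.0 and 32.3 TPM in control and at 21.8 and 20.2 TPM in Isl1cKO. Id4 thus separated by group, as did 44.9% of all tested genes, with the control values higher. Its log2 fold change was -0.77 (95% interval -1.14 to -0.40), and the limma adjusted p-value was 0.171. Id2 had a log2 fold change of -0.11.

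Of the Hes and Hey repressors, the Notch effectors that oppose proneural genes together with the proneural-induced Hes6, 0 of 6 were called, with a median log2 fold change of 0.02. Heyl and Hey2 had log2 fold changes of -0.29 and -0.28. In the list of other neural bHLH genes and relatives 8 of 14 genes were tested and 0 were called, with a median of -0.07. Bhlhe23, the closest relative of Bhlhe22, was at 1.86 and 1.93 TPM in control and at 0.903 and 1.20 TPM in Isl1cKO, with a log2 fold change of -0.50 (adjusted p-value 0.211 in limma). Ptf1a, an amacrine and horizontal cell determinant, had a log2 fold change of -0.47 and overlapping groups. Below 1 TPM in every library were 5 of the 14, namely Neurog3, Neurod6, Atoh1, Olig1 and Olig3.

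Genes that proneural factors are known to switch on, with the Notch ligands, gave 0 calls of 11 and a median log2 fold change of 0.08. Dll1, the Notch ligand of newborn neurons, was at 54.3 and 55.8 TPM in control and at 64.4 and 67.6 TPM in Isl1cKO. Both Isl1cKO values lay above both control values, where 44.9% of all tested genes separated in either direction. The log2 fold change of Dll1 was 0.26 (95% interval 0.04 to 0.47), with a limma adjusted p-value of 0.342. Jag1 had a log2 fold change of 0.22. Among the corepressors and partners, which include the Rcor and Kdm1a proteins recruited by Insm1, 0 of 7 were called. Prdm8, which forms a repressor complex with Bhlhe22, was at 10.2 and 9.97 TPM in control and at 12.9 and 14.2 TPM in Isl1cKO, with a log2 fold change of 0.39 (95% interval 0.16 to 0.63) and a limma adjusted p-value of 0.233. Rcor2 had a log2 fold change of 0.20.

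Among 14 fate regulators linked to the members, 0 were called and the median log2 fold change was -0.04. The amacrine factors Tfap2a and Tfap2b had the largest differences, at -0.63 and -0.62. Tfap2a was at 2.98 and 1.74 TPM in control and at 1.41 and 0.901 TPM in Isl1cKO (adjusted p-value 0.397 in limma).

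**Figure D4:**
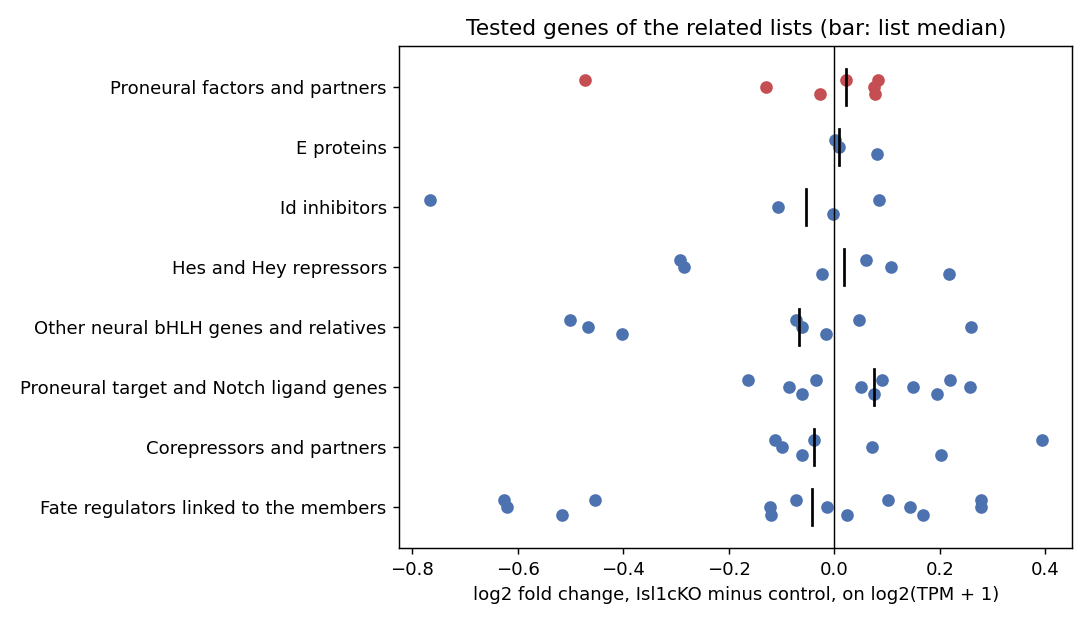
Log2 fold change of Isl1cKO minus control, horizontal axis, for each tested member (red, top row) and each tested gene of the 7 related lists (blue), with a bar at the median of each list. The medians lie between -0.07 and 0.08. The lowest point is Id4 at -0.77 and the highest is Prdm8 at 0.39.

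The patterns most like those of Neurod4 and Olig2, the members with the largest absolute fold changes, were sought among tested genes with a mean of at least 5 TPM. Likeness was the Euclidean distance between log2(TPM + 1) profiles centred on their mean over the 4 libraries, so it rests on 4 points that share depth and composition. Nearest to Neurod4 were Pde3a (distance 0.037), Slc1a2 (0.058) and Actl6b (0.060). Nearest to Olig2 were Zfp712, AI429214 and Pcdhga12, at distances from 0.025 to 0.029.

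Marker lists of tissues next to or within the eye were read in the same libraries. The lens list of 10 genes summed to 198 and 241 TPM in control and to 11.0 and 7.87 TPM in Isl1cKO. Of its 10 tested genes 6 were called lower in limma, beside 0.465% of all tested genes. The red blood cell list of 9 genes summed to 2903 and 4168 TPM in control and to 1418 and 204 TPM in Isl1cKO, with a wide gap between the Isl1cKO replicates. Of its 8 tested genes 0 were called in limma, and 4 had an unadjusted p-value under 0.05, beside 12.1% of all tested genes. No defining marker of either list was at 0 in every library. Their part in the values of the proneural genes was not tested.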

How the data were processed

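Poly(A)-selected, strand-specific RNA-seq of dissected E13.5 retina was analysed in 4 libraries. Per the submitters' processing notes, the tools were Trimmomatic, FastQC, HISAT2, SAMtools, StringTie and DESeq2 on build mm10, and versions and the annotation are not given in the sources used here. Per the file headers, the authors deposited for each library the coverage signal per base, the FPKM and the TPM of each gene, and the deposited TPM sum to 1000000. Coverage served only to describe depth and FPKM only as an alternative. Depth in reads is unknown; aligned gigabases are the median ratio of coverage to FPKM. Whether the authors counted by strand is not stated.

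TPM were summed over repeated rows of a gene (171 to 234 genes per library). Genes with at least 1 TPM in at least 2 libraries were fitted as log2(TPM + 1) with limma 3.58.1 in R 4.3.3, genotype as the only term, with two-sided tests and Benjamini-Hochberg adjustment over all 13984 genes. This scale understates changes of low genes. The model was also run on simulated data with changes larger than that of any member. That run says nothing of the power to find changes of the members' size. Named were the 8 members, Isl1, the called genes or otherwise the 2 largest fold changes of each related list, and for the 2 members with the largest absolute fold changes the 3 nearest profiles. Pou4f2, Thy1, Rcvrn, Gad1, Xist and the genes below 1 TPM were named after their values were seen. Cerkl and Gm26755 were named for their overlap with Neurod1. The members and lists were chosen with earlier results of these data known. Sequences come from GENCODE M21 and RefSeq, both on GRCm38, and positions from the authors' tables. Another gene of the lists is not reported here.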

Additional observations from a re-analysis of the deposited data

How the results depend on the processing

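No member and no related gene passed the threshold under any of 9 other settings or with any of the 4 libraries left out: the 91 values of the 7 tested members gave an adjusted p-value of at least 0.105 in limma, and 81 kept their direction. The other 10 changed sign, none of them a called value. Atoh7 was at -0.0138 with quantile normalization. Neurod1 was at 0.0218 with FPKM, 0.0239 with median-ratio scaling and 0.0230 with quantile normalization. With a library left out, the range was -0.15 to 0.31 for Atoh7, -0.00298 to 0.16 for Neurog2, -0.10 to 0.0489 for Neurod1, -0.30 to 0.0405 for Olig2 and -0.00466 to 0.0491 for Bhlhe22. Neurod4 stayed below 0 throughout, from -0.49 to -0.40 under the 9 settings and from -0.82 to -0.13 with a library left out. A group left with 1 library is assumed to vary like the other.

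The count of 69 called genes was 109 with FPKM, 110 with a mean-variance trend, 15 with no filter beyond a value above 0, 44 at a pseudocount of 0.1 and 10 to 37 with a library left out. The replicate numbers were checked for pairing, and the deviations of the libraries numbered 1 correlated at 0.126 across genes. Whether the numbers mark a pairing cannot be settled from 2 pairs, and the labels do not say, so the fit without the block was kept. With the replicate block 265 genes were called and still 0 members, and Neurod4 had an adjusted p-value of 0.222. The causes of these changes were not tested.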

Other observations

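Ratios between members within a library do not depend on a factor that scales all genes of that library alike. They can change with quantile normalization. The ratio of Atoh7 to Neurog2 came to 5.89 and 8.67 in the control libraries, and to 6.002 and 8.52 in the Isl1cKO libraries (replicate 1 first), so that the libraries numbered alike were closer than those of a genotype. The ratio of Neurod1 to Neurod4 was 2.58 and 3.22 in control and 3.26 and 4.81 in Isl1cKO. Both Isl1cKO values lay above both control values, but Isl1cKO replicate 1 was almost level with control replicate 2. How often ratios of other genes separate in this way was not examined. The ratio of Atoh7 to Pou4f2 was 8.13 and 10.9 in control and 7.82 and 12.2 in Isl1cKO. These ratios were chosen after the levels had been seen and were not tested.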
